A study of Mus musculus with 10 samples.

Results

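Interferon-stimulated genes and interferon regulatory factors (IRFs) were followed as a group of 72 genes among the 15790 listed in a table of RNA counts from sorted mouse thymic epithelial cells. Members were chosen by symbol and comprise the Ifi, Ifit, Ifitm, Oas, Gbp, Irgm and Isg families, the Irf genes with the genes for IRF2-binding proteins, Mx1 and Mx2, Stat2, the interferon alpha and gamma receptor genes, and Rsad2, Igtp, Iigp1, Bst2, Usp18, Ddx58 and Ifih1, with Ifi203 and Gbp2b left out and a minimum total of 30 counts over the 10 libraries. The symbols matched 73 genes, and Ifi44l, with a total of 11 counts, fell under the minimum. The lowest totals inside it were 34 counts for Ifitm6, 59 for Oas1e and 61 for Oas1g.

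MARS-seq, a method that tags transcripts at their 3′ ends, was used to make the libraries. AR3_mut (3 libraries) came from mice labelled as Foxn1 mutants with the del AR3 allele. AR3_het (3 libraries) came from the heterozygous controls, which carry that allele too. Both were C57BL/6 mice of 4.5 weeks. Nude (4 libraries) came from nu/nu mice of the ICR strain at 5 weeks, so strain and age changed together with the nude genotype and cannot be told apart from it. Foxn1 encodes the transcription factor that drives thymic epithelial differentiation, and nu/nu mice lack its function. Neither the markers used for sorting nor the number of animals behind a library is given in the sources used here, and a p-value therefore reflects just the library-to-library spread, which may be technical.

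Interferons are secreted proteins that alert cells to infection. Type I interferons act through the receptor of Ifnar1 and Ifnar2 and type II interferon through that of Ifngr1 and Ifngr2, and both signal through Janus kinases to transcription factors, among them Stat2 and Irf9 for type I. These factors bind short promoter elements, the interferon-stimulated response element and the gamma-activated site, and switch on genes whose products degrade viral RNA, block viral entry or attack the vacuoles of intracellular microbes. In the thymus, medullary epithelial cells are known to make interferons without infection.

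The labelled cell type was checked against marker genes before the members were read. Summed over 10 markers of thymic epithelium, the level was 13783 to 18577 CPM (counts scaled to library sizes adjusted by edgeR's TMM factors) in AR3_het, 1727 to 4338 in AR3_mut and 4220 to 5840 in nude, with 8 of 10 markers lower in each mutant group. Epcam was not among the markers called against AR3_het, while Ly75 was at 0 counts in AR3_mut and Psmb11 at 0 in nude. Foxn1 itself held 1844, 1046 and 1711 counts in AR3_het, 4, 2 and 2 in AR3_mut and 4, 3, 1 and 2 in nude. Markers of endothelium summed to 6264 to 7482 CPM in AR3_mut and 1399 to 2664 in nude against 183 to 220 in AR3_het, with 12 of 12 higher in each. For fibroblasts and pericytes the sums were 3399 to 7125 CPM in AR3_mut and 4965 to 13940 in nude against 221 to 354 in AR3_het, with 11 and 10 of 11 tested markers higher. All 12 markers of thymocytes and T cells were lower in both mutant groups, at 8.1 to 12.9 CPM in AR3_mut and 4.54 to 8.6 in nude against 1003 to 1757 in AR3_het, and Cd3d, Cd8b1, Rag1 and Themis were at 0 in both. Myeloid markers summed to 3439 CPM in AR3_mut 1, far above the 373 and 304 of the other AR3_mut libraries, and to 331 to 801 in AR3_het and 108 to 275 in nude. Gene by gene, 8 of 13 tested myeloid markers were lower and 1 (Csf1r) higher in AR3_mut than in AR3_het, and 9 lower and 1 higher in nude. Sums for B cells were 38.2 to 98.2 CPM in AR3_mut, 111 to 172 in AR3_het and 39.6 to 123 in nude. Markers of plasmacytoid dendritic cells gave 279 to 575, 135 to 312 and 70.2 to 1005 CPM, respectively, with Siglech and Ccr9 at 0 in nude. Between AR3_mut and nude, 10 of 12 endothelial markers were higher in AR3_mut, against 2 of 11 tested for fibroblasts and pericytes and 1 higher and 1 lower of 10 for thymic epithelium, and the thymocyte sums overlapped. The part of these shifts in the results was not tested. In bulk RNA, fewer cells of a type and less RNA per cell cannot be told apart.

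**Figure D1:**
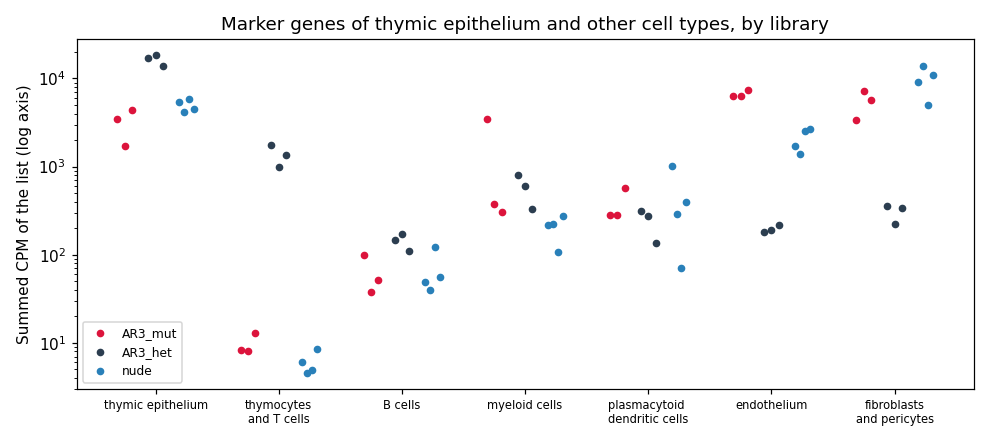
Summed CPM of marker genes (vertical log axis) for thymic epithelium and other cell types, 1 point per library, coloured by group. AR3_het is highest for thymic epithelium and for thymocytes, both mutant groups are highest for endothelium and fibroblasts, and AR3_mut 1 stands apart for myeloid markers at 3439 CPM.

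Promoter sequences were read for the members from the RefSeq table of GRCm38.p6, which holds 300 bases for each gene start, 250 before it and 50 after it. The table matched 54 of the 72 members. The core of the interferon-stimulated response element was searched on both strands as a pair of GAAA blocks with any 2 bases between them, and 25 of 54 members (46.3%) held at least 1, against 3.99% of 27025 genes. The gamma-activated site TTCNNNGAA, a palindrome that reads alike on both strands and was searched without regard to overlap with the other motif, was in 18 members (33.3%) against 9.55% of genes. The stretches below are 100 bases each from the window before the gene start, printed 5′ to 3′ along the gene's own strand, with the response element core in capitals (a core on the opposite strand reads as TTTC blocks). Those of Gbp7, Igtp, Oas1f and Irf1 reach to the gene start, and the others were placed around their cores and end before it, with 4 bases between for Gbp2, 9 for Irgm2, 17 for Isg15, 20 for Oas3 and 40 for Ifit1. Gbp2, Gbp7 and Irgm2 are shown because their RNA was higher in AR3_mut. Igtp is shown because its promoter nearly copies that of Irgm2 while its RNA was not called in AR3_mut against AR3_het. Ifit1 and Isg15 are shown because they were lower in nude, and Irf1 as a regulator without a core. Gamma-activated sites are not marked, and the stretches of Gbp7, Irgm2, Igtp and Irf1 hold such a site. Oas3 and Oas1f are shown because both were lower in both mutant groups while only the window of Oas3 holds a core. For Oas1f the choice of members fixed the lower calls.
Gbp2, chr3:142620559-142620658, plus strand: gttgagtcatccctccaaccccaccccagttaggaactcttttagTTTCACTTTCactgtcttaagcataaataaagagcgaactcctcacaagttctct
Gbp7, chr3:142530236-142530335, plus strand: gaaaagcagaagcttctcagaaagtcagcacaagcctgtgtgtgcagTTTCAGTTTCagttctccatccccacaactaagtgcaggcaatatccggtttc
Irgm2, chr11:58214868-58214967, plus strand: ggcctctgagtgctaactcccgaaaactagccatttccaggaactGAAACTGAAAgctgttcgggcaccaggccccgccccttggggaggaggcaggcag
Igtp, chr11:58199456-58199555, plus strand: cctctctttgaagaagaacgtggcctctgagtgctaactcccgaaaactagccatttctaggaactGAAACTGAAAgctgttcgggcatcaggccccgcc
Ifit1, chr19:34640749-34640848, plus strand: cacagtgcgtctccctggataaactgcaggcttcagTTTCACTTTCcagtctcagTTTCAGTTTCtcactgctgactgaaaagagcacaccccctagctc
Isg15, chr4:156200836-156200935, minus strand: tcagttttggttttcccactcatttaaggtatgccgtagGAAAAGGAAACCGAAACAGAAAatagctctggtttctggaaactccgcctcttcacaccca
Oas3, chr5:120777680-120777779, minus strand: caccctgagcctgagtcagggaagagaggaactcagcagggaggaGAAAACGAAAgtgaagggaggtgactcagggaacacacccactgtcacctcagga
Oas1f, chr5:120847267-120847366, plus strand: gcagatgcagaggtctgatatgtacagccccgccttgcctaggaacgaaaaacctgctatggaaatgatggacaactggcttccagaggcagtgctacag
Irf1, chr11:53769914-53770013, plus strand: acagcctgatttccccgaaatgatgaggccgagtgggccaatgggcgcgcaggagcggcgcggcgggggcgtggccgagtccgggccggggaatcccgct

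Isg15 held 3 overlapping cores and Ifit1 2, while the other windows with a core shown here held 1. By role, the core was in all 4 guanylate-binding protein genes with a sequence, 6 of 10 genes of the IFIT and IFITM families, 4 of 8 oligoadenylate synthetase genes, 1 IRF gene (Irf2) and 0 of 4 receptor genes. It was in 8 of 15 members that were higher in AR3_mut than in AR3_het, 2 of 11 that were lower and 14 of 26 that were not called. For nude against AR3_het, the shares were 3 of 7 higher, 10 of 25 lower and 11 of 20 not called. All these shares are counts of letters in the windows and were not tested. Among the lower members of both comparisons are Ifit1bl1, with a core, and Oas1f and Oas1h, without one. The choice of members fixed the lower calls of these genes.

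Against AR3_het, AR3_mut held more RNA of 6 guanylate-binding protein genes, of Irf1 and of the receptor chain Ifnar2, and less of Irf8, Usp18, Gbp8 and Oas3. Nude shared the differences in Irf1, Ifnar2, Irf8, Usp18, Gbp8 and Oas3 in direction, and held less RNA of Isg15, Irf7, Ifit1 and Ifit3 as well. Ifit1 was also below every AR3_het library in AR3_mut, but narrowly missed the threshold given below. Differences were tested gene by gene with edgeR's quasi-likelihood test over all 12912 genes that passed a filter on low counts, and a gene is called where its Benjamini-Hochberg adjusted p is under 0.05. Each difference is a log2 fold change, with its standard error (SE). Of the 72 members 69 passed the filter and Ifitm6, Oas1e and Oas1g did not. In AR3_mut against AR3_het, 36 of the 69 were called, 21 higher (30.4%) and 15 lower (21.7%). Over all genes tested 41.8% were called, 21.2% higher and 20.6% lower, so the members' share of lower calls was near the background. Of the lower calls 4, for Ifit1bl1, Oas1d, Oas1f and Oas1h, were built into the choice of members, since these genes reached the minimum total only through their AR3_het counts and were lower in nude too; their calls support nothing. The median log2 fold change of the members was 0.02, and that of all genes was -0.04.

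In nude against AR3_het, 8 members were higher (11.6%) and 31 lower (44.9%), with a median of -0.57. Among all genes 47.9% were called, 23.7% higher and 24.2% lower, with a median of -0.03. In AR3_mut against nude, 19 members were higher (27.5%) and 3 lower (4.35%), with a median of 0.64. The background there was 11.3% called, 7.58% higher and 3.71% lower, with a median of 0.00. Both comparisons with AR3_het share its 3 libraries. Summed over all 72 members, the level was 9719 to 10069 CPM in AR3_mut, 8770 to 9868 in AR3_het and 5828 to 9612 in nude, and AR3_het overlapped with both other groups.

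The balance of calls depends on scaling. With library totals in place of TMM, the median of all genes moved to -0.33 in AR3_mut against AR3_het and to -0.41 in nude against AR3_het, the share of calls that were higher went from 50.7% to 34.7% and from 49.5% to 30.6%, and the members called became 15 higher and 19 lower, and 7 higher and 39 lower. In AR3_mut against nude that share went from 67.1% to 75.1% and the members to 23 higher and 3 lower. Without AR3_mut 2, the count of members higher in AR3_mut than in AR3_het was 13 in place of 21, and without AR3_het 1 or AR3_het 2 it was 14. Without AR3_mut 1, the library with the high myeloid markers, the counts were 19 higher and 15 lower.

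**Figure D2:**
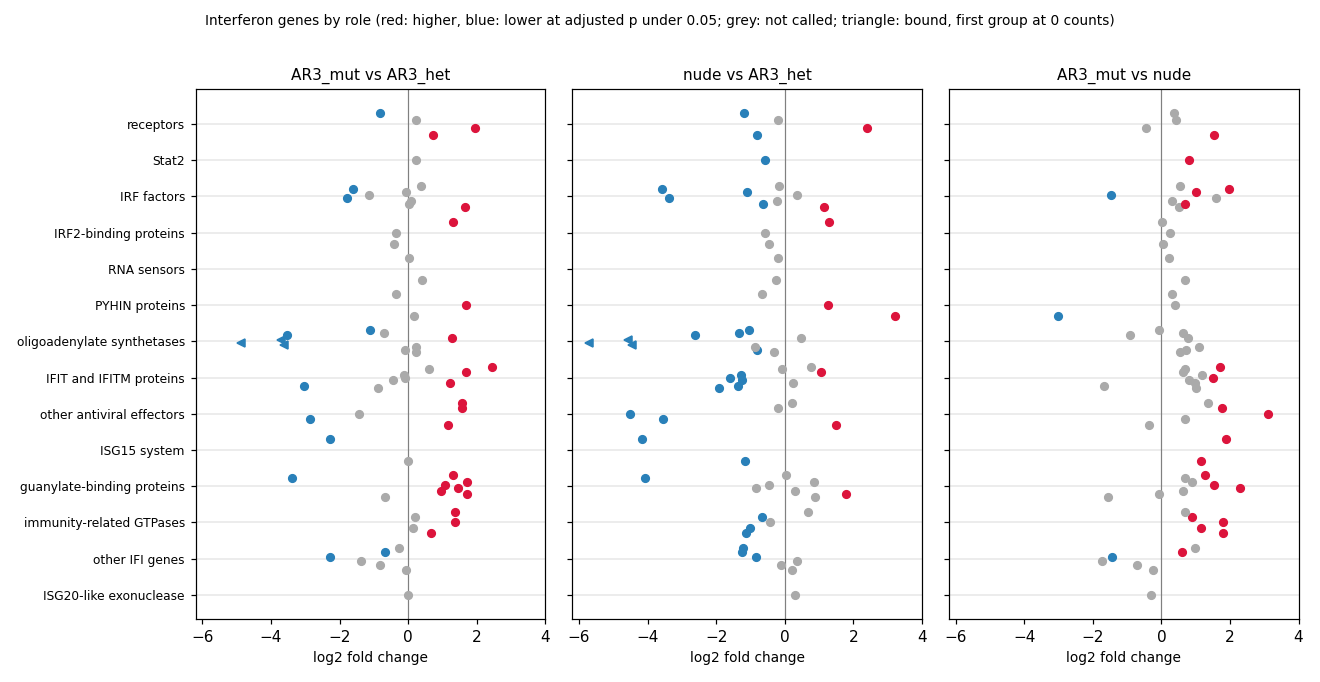
Log2 fold changes (horizontal axes) of 67 of the 69 tested members, 1 point per gene in rows by role, for the 3 comparisons; red and blue points passed an adjusted p of 0.05, and triangles mark lower bounds on the size of a fold against a group at 0 counts. Calls fall on both sides for AR3_mut against AR3_het, mostly to the left for nude against AR3_het and mostly to the right for AR3_mut against nude; genes at 0 in both groups are not drawn.

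The receptor chains did not move together. Ifnar2, a chain of the type I receptor, stood at 331, 357 and 311 CPM in AR3_mut, 85.5, 86.7 and 84.7 in AR3_het and 455, 494, 388 and 466 in nude. Every mutant library was above every control library, with a log2 fold change of 1.96 (adjusted p = 3.44e-06, SE 0.16) in AR3_mut and 2.40 (adjusted p = 5.99e-07, SE 0.15) in nude. The other type I chain, Ifnar1, was at 23.9, 20.8 and 22.9 CPM in AR3_mut, 13.9, 15.2 and 12 in AR3_het and 6.5, 8.66, 8.85 and 7.37 in nude. The 3 groups did not overlap: Ifnar1 was highest in AR3_mut (log2 fold change 0.72, adjusted p = 0.027, SE 0.23 against AR3_het) and lowest in nude (-0.80, adjusted p = 0.0114, SE 0.23 against AR3_het and 1.53, adjusted p = 0.00246, SE 0.23 for AR3_mut against nude). Its higher level in AR3_mut than in AR3_het was not called in any of the fits that left out 1 of these 6 libraries (adjusted p from 0.0517 without AR3_mut 3 to 0.11 without AR3_het 1), nor without TMM (0.43, adjusted p = 0.177).

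Of the type II receptor chains, Ifngr2 was at 70.8, 109 and 62.7 CPM in AR3_mut, 156, 140 and 130 in AR3_het and 82, 63.5, 45.9 and 58.5 in nude. All mutant libraries were below all AR3_het libraries, with a log2 fold change of -0.81 (adjusted p = 0.0201, SE 0.24) in AR3_mut and -1.18 (adjusted p = 0.00107, SE 0.23) in nude. The AR3_mut call was lost without AR3_mut 1 (adjusted p = 0.0709) or AR3_mut 3 (0.0747). Ifngr1, the ligand-binding chain, was at 117, 94.9 and 105 CPM in AR3_mut, 105, 84.6 and 82 in AR3_het and 57.1, 99.4, 60.3 and 98.7 in nude. These levels overlapped between all groups and Ifngr1 was not called in any comparison.

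Stat2, which carries the signal of the type I receptor to the nucleus, stood at 126, 160 and 92.6 CPM in AR3_mut, 107, 105 and 112 in AR3_het and 65.8, 87.8, 59.2 and 78.2 in nude. AR3_mut and AR3_het overlapped (log2 fold change 0.23, adjusted p = 0.417, SE 0.21), and nude was lowest (-0.57, adjusted p = 0.0328, SE 0.20 against AR3_het, and 0.80, adjusted p = 0.0258, SE 0.20 for AR3_mut against nude). Both nude calls of Stat2 were lost without single libraries: adjusted p was 0.0523 to 0.0817 without AR3_het 1, 2 or 3 or nude 1 or 3 in the first, and 0.0506 to 0.112 without AR3_mut 1 or 2, AR3_het 1 or 2 or nude 1 in the second.

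**Figure D3:**
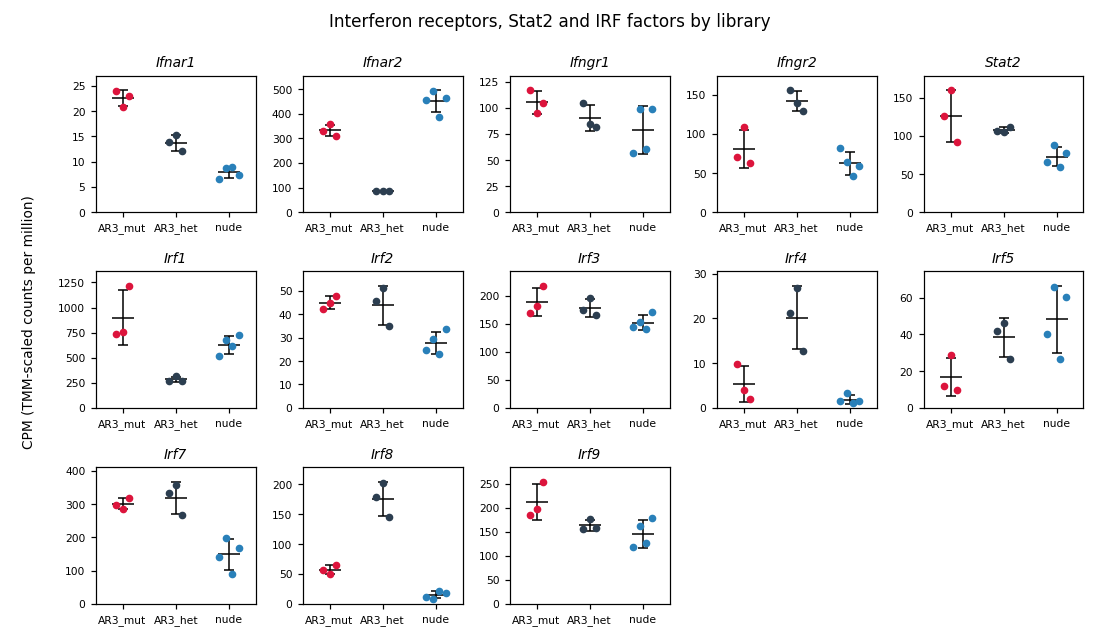
CPM (vertical axes from 0) of the receptor chains, Stat2 and 8 IRF genes in each library; points are libraries, bars are the mean and SD of a group (n = 3, 3 and 4). Ifnar2 and Irf1 are higher in both mutant groups than in AR3_het, Irf4 and Irf8 are lower in both, and Irf7 is lower in nude than in AR3_het.

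Of 8 IRF genes, 1 was higher and 2 lower in AR3_mut than in AR3_het, and 1 was higher and 4 lower in nude. The shares of all tested genes were 21.2% higher and 20.6% lower in AR3_mut, and 23.7% and 24.2% in nude. Irf1, an activator induced by interferon gamma, was at 732, 753 and 1214 CPM in AR3_mut, 270, 316 and 266 in AR3_het and 514, 674, 615 and 723 in nude. It did not overlap between AR3_het and either mutant group, with a log2 fold change of 1.66 (adjusted p = 0.000142, SE 0.23) in AR3_mut and 1.15 (adjusted p = 0.000919, SE 0.22) in nude. Irf2, which competes with Irf1 for the same elements, was at 42.2, 44.6 and 47.8 CPM in AR3_mut, 45.5, 50.9 and 34.8 in AR3_het and 24.6, 29.3, 23.2 and 33.6 in nude. It overlapped between AR3_mut and AR3_het (log2 fold change 0.03, adjusted p = 0.912, SE 0.20) and was lower in nude than in AR3_het (-0.65, adjusted p = 0.0135, SE 0.19), a call lost without AR3_het 2 (adjusted p = 0.0528). For AR3_mut against nude, Irf2 passed (log2 fold change 0.69, adjusted p = 0.0436, SE 0.20), but was not called in 8 of the fits without 1 library (adjusted p 0.0673 to 0.105).

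Irf8, a regulator of myeloid and dendritic cell development, was at 56.7, 49.8 and 65.7 CPM in AR3_mut, 179, 202 and 145 in AR3_het and 11.2, 8.66, 21 and 18.4 in nude. The groups formed 3 separate levels, with a log2 fold change of -1.62 (adjusted p = 0.000601, SE 0.27) in AR3_mut and -3.58 (adjusted p = 1.53e-06, SE 0.27) in nude against AR3_het, and 1.96 (adjusted p = 0.00175, SE 0.27) for AR3_mut against nude. Irf4, known from lymphocytes and dendritic cells, was at 9.78, 4.05 and 1.99 CPM in AR3_mut, 21.1, 26.7 and 12.7 in AR3_het and 1.45, 3.3, 1.11 and 1.64 in nude. AR3_het was above all mutant libraries, and AR3_mut and nude overlapped. The log2 fold changes were -1.78 (adjusted p = 0.0134, SE 0.50) in AR3_mut and -3.37 (adjusted p = 0.000185, SE 0.50) in nude. All 12 thymocyte markers were lower in both mutant groups too, as were 8 of 13 myeloid markers in AR3_mut and 9 of 13 in nude, although the myeloid sums of AR3_mut and AR3_het overlapped, and their part in the levels of Irf4 and Irf8 was not tested. Irf5, which acts downstream of Toll-like receptors, was at 12.1, 28.9 and 9.95 CPM in AR3_mut, 42, 46.4 and 26.6 in AR3_het and 40.1, 65.6, 26.5 and 60.2 in nude. It overlapped between all groups and missed the threshold in AR3_mut against AR3_het (log2 fold change -1.14, adjusted p = 0.051, SE 0.43), where 9 of 17 alternative fits called it lower. Irf5 passed as lower in AR3_mut than in nude (-1.48, adjusted p = 0.0411, SE 0.41). That call was lost without AR3_mut 1 or 3, AR3_het 1 or 2, or nude 1, 2 or 4, with adjusted p between 0.0554 and 0.153.

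Irf3 and Irf7 are the factors that switch on type I interferon genes themselves. Irf3 was at 169, 182 and 217 CPM in AR3_mut, 174, 195 and 165 in AR3_het and 145, 153, 140 and 170 in nude. It was not called in any comparison. Irf7, itself interferon-inducible, was at 299, 286 and 319 CPM in AR3_mut, 334, 358 and 266 in AR3_het and 141, 198, 89.6 and 167 in nude. AR3_mut and AR3_het overlapped, and every nude library was below them, with a log2 fold change of -1.10 (adjusted p = 0.00214, SE 0.23) against AR3_het and 1.02 (adjusted p = 0.0178, SE 0.23) for AR3_mut against nude. Without AR3_mut 3 or nude 1 the second adjusted p was 0.0516 and 0.0521.

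Irf9, the DNA-binding partner of Stat2, was at 185, 197 and 254 CPM in AR3_mut, 156, 176 and 158 in AR3_het and 118, 162, 126 and 179 in nude. The AR3_mut libraries lay above all others and nude overlapped with AR3_het, but no comparison was called (log2 fold change 0.37, adjusted p = 0.156, SE 0.20 in AR3_mut against AR3_het). Among the 3 IRF2-binding protein genes, Irf2bpl was at 113, 99.6 and 134 CPM in AR3_mut, 45.7, 49.1 and 46.8 in AR3_het and 109, 96.1, 142 and 112 in nude. Both mutant groups lay above AR3_het, with a log2 fold change of 1.29 (adjusted p = 0.000181, SE 0.18) in AR3_mut and 1.28 (adjusted p = 9.86e-05, SE 0.17) in nude. Irf2bp1 and Irf2bp2 were not called.

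The RNA sensor genes Ddx58 and Ifih1, which encode RIG-I and MDA5, were not called in any comparison, with log2 fold changes from -0.27 to 0.68. Among the PYHIN genes, whose products bind DNA, Ifi202b was at 23.5, 7.53 and 13.9 CPM in AR3_mut, 12.6, 8.49 and 19.5 in AR3_het and 149, 148, 82.4 and 124 in nude. All 4 nude libraries were above all others, with a log2 fold change of 3.20 (adjusted p = 3.92e-05, SE 0.38) against AR3_het and -3.02 (adjusted p = 0.0013, SE 0.40) for AR3_mut against nude. Ifi202b is known to differ in expression between inbred strains, and strain cannot be told apart from genotype in nude. Ifi204 was at 25, 71.8 and 21.9 CPM in AR3_mut, 13.2, 11.5 and 12.7 in AR3_het and 31.4, 30.1, 24.9 and 33.6 in nude. Both mutant groups lay above AR3_het, with a log2 fold change of 1.67 (adjusted p = 0.00448, SE 0.39) in AR3_mut and 1.26 (adjusted p = 0.013, SE 0.36) in nude, although AR3_mut 2 was far above the other AR3_mut libraries. The nude call was lost without AR3_het 2 (adjusted p = 0.0528) and without TMM (0.88, adjusted p = 0.059). Ifi205 was not called.

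Oligoadenylate synthetases make short adenylate chains that activate the RNA-degrading enzyme RNase L. Of their 10 tested genes, 1 was higher and 5 lower in AR3_mut than in AR3_het, and 7 were lower in nude. In each, 3 of the lower calls were those of Oas1d, Oas1f and Oas1h. Among all tested genes, 21.2% were higher and 20.6% lower in AR3_mut, and 24.2% lower in nude. A run of 10 genes, from Oas2 to Oas1d, lies on chromosome 5 between 120730333 and 120921652 (GENCODE M21, GRCm38), and its members went different ways. Oas1f held 89, 51 and 72 counts in AR3_het and 0 in every mutant library. Oas1d held 43, 21 and 25 counts and Oas1h 29, 11 and 56 in AR3_het, and both were at 0 in every mutant library, as was Oas1e, with 26, 6 and 27 counts in AR3_het. These 4 genes met the minimum total through AR3_het alone, so their lower levels in the mutant groups are a description that their selection fixed, with no test. Against a floor of 3 counts over a group, Oas1f was at least 29.1-fold lower in AR3_mut and at least 52-fold lower in nude. The bounds in AR3_mut were at least 12.2-fold for Oas1d, 8.11-fold for Oas1e and 13.2-fold for Oas1h. In nude they were at least 21.8-fold, 14.5-fold and 23.5-fold.

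Oas3 was at 4.3, 0.579 and 1.99 CPM in AR3_mut, 32.1, 30.3 and 27.7 in AR3_het and 3.25, 10.3, 1.66 and 3.68 in nude. Every mutant library was below every AR3_het library, with a log2 fold change of -3.55 (adjusted p = 0.000735, SE 0.62) in AR3_mut and -2.63 (adjusted p = 0.000891, SE 0.49) in nude. Its neighbour Oas2 went the other way and was at 41.5, 57.3 and 44.8 CPM in AR3_mut, 24.6, 17.9 and 16.9 in AR3_het and 24.6, 38.8, 18.8 and 28.7 in nude. It was higher in AR3_mut than in AR3_het without overlap (log2 fold change 1.27, adjusted p = 0.00305, SE 0.27) and overlapped with AR3_het in nude (0.48, adjusted p = 0.143, SE 0.26). Oas1a, Oas1c and Oas1b, between or beside the genes at 0, were at 7.53 to 14.9 CPM in AR3_mut and 6.65 to 16.3 in AR3_het with no call, and Oas1b was lower in nude (log2 fold change -0.81, adjusted p = 0.0142, SE 0.24). The Oas1 genes are close copies of each other, so that reads could have been split among them. In the promoter windows, the 98 bases compared around the core of Oas1a and Oas1g had 91 in common, and neither Oas1f nor Oas1h held a core.

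**Figure D4:**
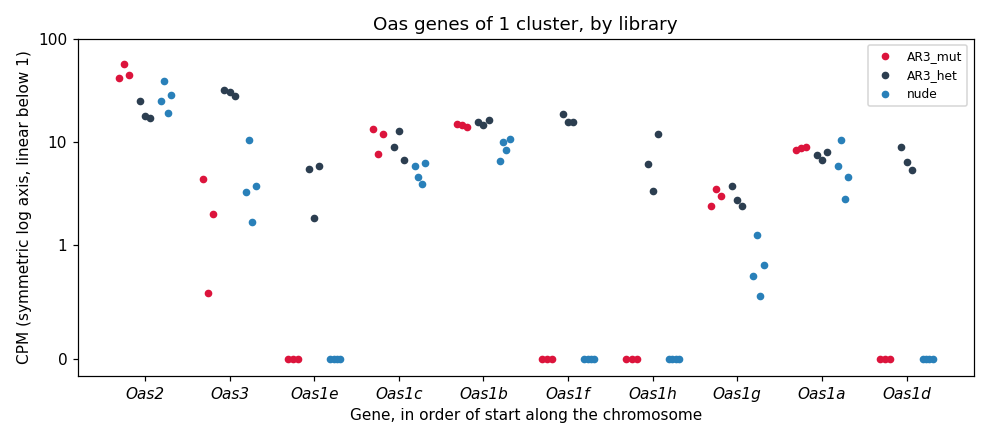
CPM (vertical axis, logarithmic above 1 and linear below) of the 10 Oas genes of the chromosome 5 cluster in order of their start, 1 point per library. Oas1e, Oas1f, Oas1h and Oas1d are at 0 in all AR3_mut and nude libraries, Oas3 is lower in both, and Oas2 is higher in AR3_mut than in AR3_het.

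The Oas-like genes lie elsewhere on chromosome 5. Oasl2 was at 124, 133 and 152 CPM in AR3_mut, 288, 311 and 283 in AR3_het and 158, 212, 57 and 140 in nude. All mutant libraries were below AR3_het, with a log2 fold change of -1.11 (adjusted p = 0.0234, SE 0.35) in AR3_mut and -1.05 (adjusted p = 0.017, SE 0.32) in nude. The AR3_mut call was lost without AR3_mut 1 or 2 or AR3_het 2 (adjusted p 0.0522 to 0.0667). Oasl1, known in the mouse to restrain Irf7 translation, was at 32.1, 23.2 and 32.8 CPM in AR3_mut, 52.6, 57.6 and 33 in AR3_het and 12.6, 32.2, 6.64 and 22.9 in nude. It was lower in nude (log2 fold change -1.34, adjusted p = 0.0156, SE 0.40), a call lost without AR3_het 2 (adjusted p = 0.0572), and not called in AR3_mut (-0.70, adjusted p = 0.219, SE 0.43).

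IFIT proteins bind viral RNA and IFITM proteins block viral entry at membranes. Of 9 tested, 3 were higher and 1 lower in AR3_mut than in AR3_het, and 1 was higher and 5 lower in nude. The 1 lower in AR3_mut, also among the 5 in nude, was Ifit1bl1, whose selection fixed its lower calls. Shares of all tested genes were 21.2% higher and 20.6% lower in AR3_mut, and 23.7% and 24.2% in nude. Ifit1 was at 92.3, 94.4 and 44.8 CPM in AR3_mut, 129, 106 and 200 in AR3_het and 45.2, 35.9, 23.2 and 48.7 in nude. Nude was below both other groups' ranges except for AR3_mut 3, and passed against AR3_het (log2 fold change -1.92, adjusted p = 0.000395, SE 0.31), while AR3_mut missed the threshold (-0.89, adjusted p = 0.0515, SE 0.34). Every AR3_mut library was nevertheless below every AR3_het library, and 6 of 17 alternative fits, DESeq2 among them, called Ifit1 lower in AR3_mut. Ifit3b was at 22.3, 13.9 and 21.9 CPM in AR3_mut, 21.3, 22.1 and 18.2 in AR3_het and 3.97, 7.01, 4.98 and 11.1 in nude. AR3_mut and AR3_het overlapped and nude was lower than both, with a log2 fold change of -1.59 (adjusted p = 0.00178, SE 0.33) against AR3_het and 1.51 (adjusted p = 0.0174, SE 0.34) for AR3_mut against nude, the second lost without AR3_mut 1 (adjusted p = 0.0739). Ifit3 was at 95.4, 48.6 and 49.8 CPM in AR3_mut, 81.1, 98.5 and 88.6 in AR3_het and 23.5, 32.6, 23.8 and 70.8 in nude. Nude was wholly below AR3_het (log2 fold change -1.24, adjusted p = 0.0158, SE 0.37), and AR3_mut overlapped with both. Ifit3 and Ifit3b shared all 152 promoter bases compared, and their counts may include reads of each other.

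Ifit2 went against its neighbours on chromosome 19 and was at 20.3, 29.5 and 17.9 CPM in AR3_mut, 6, 8.18 and 14.8 in AR3_het and 9.39, 11.1, 7.19 and 18 in nude. It was higher in AR3_mut than in AR3_het without overlap (log2 fold change 1.23, adjusted p = 0.0303, SE 0.41), but the call was lost without AR3_mut 2, AR3_het 1 or AR3_het 2 (adjusted p 0.113 to 0.143) and without TMM (0.91, adjusted p = 0.096). In nude, Ifit2 overlapped with AR3_het. Ifit1bl1, at low levels of 0.391 to 10.3 CPM, met the minimum total only through AR3_het, and its lower call in both mutant groups supports nothing.

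Ifitm2 was at 835, 737 and 746 CPM in AR3_mut, 208, 303 and 219 in AR3_het and 454, 494, 392 and 669 in nude. Both mutant groups lay above AR3_het, with a log2 fold change of 1.67 (adjusted p = 0.000139, SE 0.23) in AR3_mut and 1.04 (adjusted p = 0.00175, SE 0.21) in nude. Ifitm1 was at 66.1, 27.2 and 33.8 CPM in AR3_mut, 50.1, 60 and 30 in AR3_het and 12.3, 21.4, 24.9 and 18.8 in nude. It was lower in nude than in AR3_het (log2 fold change -1.28, adjusted p = 0.00942, SE 0.35), while AR3_mut overlapped with AR3_het. Ifitm5, known from bone, was at 10.2 to 18.9 CPM in AR3_mut against 1.86 to 3.03 in AR3_het (log2 fold change 2.45, adjusted p = 0.000357, SE 0.38) and 3.68 to 4.12 in nude. Ifitm3 was not called, with levels of 1275 to 2152, 1028 to 1357 and 663 to 1638 CPM in AR3_mut, AR3_het and nude. Ifitm6 was not tested and held 0 to 11 counts per library. IFITM genes are also expressed in endothelium and fibroblasts, whose marker sums were higher in both mutant groups, and the part of those cells was not tested.

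Among other antiviral effectors, Isg20, an RNA exonuclease, was at 215, 90.3 and 102 CPM in AR3_mut, 1041, 1061 and 894 in AR3_het and 84.2, 115, 50.9 and 88 in nude. All mutant libraries were well below AR3_het, with a log2 fold change of -2.87 (adjusted p = 7.65e-05, SE 0.36) in AR3_mut and -3.56 (adjusted p = 7.09e-06, SE 0.33) in nude. Bst2, the tetherin that holds budding virus at the membrane, was at 755, 696 and 846 CPM in AR3_mut, 402, 361 and 270 in AR3_het and 656, 1373, 467 and 1398 in nude. Both mutant groups lay above AR3_het, with a log2 fold change of 1.15 (adjusted p = 0.0273, SE 0.37) in AR3_mut and 1.50 (adjusted p = 0.00477, SE 0.36) in nude. The AR3_mut call was lost without AR3_mut 2 or 3 or any AR3_het library (adjusted p 0.0593 to 0.102) and without TMM (0.86, adjusted p = 0.0734). Rsad2, which encodes viperin, was at 41.5, 96.1 and 53.7 CPM in AR3_mut, 16.6, 11.5 and 35.8 in AR3_het and 17, 22.7, 19.9 and 39.7 in nude. It was higher in AR3_mut than in AR3_het without overlap (log2 fold change 1.57, adjusted p = 0.0166, SE 0.46), and the call was lost without AR3_mut 2, AR3_het 1 or AR3_het 2 (adjusted p 0.0733 to 0.103) and without TMM (1.25, adjusted p = 0.0534).

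The Mx GTPases trap viral nucleoproteins. Mx2 was at 62.2, 48 and 53.7 CPM in AR3_mut, 13.9, 20.6 and 21.5 in AR3_het and 15.9, 14.4, 17.1 and 16.8 in nude. AR3_mut was above both other groups, which overlapped, with a log2 fold change of 1.56 (adjusted p = 0.000161, SE 0.22) against AR3_het and 1.77 (adjusted p = 0.000721, SE 0.21) against nude. Mx1 was at 14.1, 4.63 and 1.99 CPM in AR3_mut, 21.9, 22.1 and 17.6 in AR3_het and 0, 0, 0.553 and 2.87 in nude. AR3_het was above all mutant libraries, but AR3_mut did not pass (log2 fold change -1.43, adjusted p = 0.12, SE 0.69), and nude did (-4.52, adjusted p = 0.000665, SE 0.80). AR3_mut against nude also passed (log2 fold change 3.10, adjusted p = 0.0434, SE 0.88) although the groups overlapped, and that call was lost without AR3_mut 1 (adjusted p = 0.285) and without 7 of the other libraries (adjusted p 0.0507 to 0.0955). Mx1 is known to carry defective alleles in many inbred strains, and strain cannot be told apart from genotype in nude.

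Isg15 encodes a ubiquitin-like protein that is attached to other proteins, and Usp18 the protease that removes it and also damps signalling from the type I receptor. Isg15 was at 412, 390 and 486 CPM in AR3_mut, 395, 478 and 414 in AR3_het and 137, 247, 139 and 250 in nude. AR3_mut and AR3_het overlapped, with means of 429 CPM each, and nude was below both (log2 fold change -1.15, adjusted p = 0.00176, SE 0.24 against AR3_het, and 1.15, adjusted p = 0.0108, SE 0.24 for AR3_mut against nude). Usp18 was at 38.7, 35.9 and 26.9 CPM in AR3_mut, 189, 178 and 136 in AR3_het and 6.5, 7.83, 3.32 and 18.8 in nude. Here the groups did not overlap and AR3_mut was between the others, with a log2 fold change of -2.29 (adjusted p = 0.000672, SE 0.39) in AR3_mut and -4.17 (adjusted p = 7.09e-06, SE 0.39) in nude against AR3_het.

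Guanylate-binding proteins are large interferon-induced GTPases that assemble on vacuoles of intracellular microbes. Of 8 tested, 6 were higher and 1 lower in AR3_mut than in AR3_het, while in nude 1 was higher and 1 lower. All tested genes gave 21.2% higher and 20.6% lower in AR3_mut, and 23.7% and 24.2% in nude. Gbp2 was at 151, 218 and 192 CPM in AR3_mut, 55.7, 48.8 and 65.2 in AR3_het and 250, 209, 118 and 204 in nude. It was higher in both mutant groups without overlap, with a log2 fold change of 1.72 (adjusted p = 0.000302, SE 0.26) in AR3_mut and 1.79 (adjusted p = 0.000127, SE 0.25) in nude. Gbp7, close to Gbp2 on chromosome 3, was at 34.4, 60.8 and 41.8 CPM in AR3_mut, 8.9, 5.76 and 26.2 in AR3_het and 29.6, 18.6, 33.7 and 17.6 in nude. AR3_mut was above AR3_het (log2 fold change 1.72, adjusted p = 0.0146, SE 0.49) and nude overlapped with AR3_het (0.84, adjusted p = 0.155, SE 0.46). The AR3_mut call of Gbp7 was lost without AR3_mut 2, AR3_het 1 or AR3_het 2 (adjusted p 0.0519 to 0.0711).

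Gbp8 was lower in both mutant groups and stood at 9.39, 9.26 and 6.97 CPM in AR3_mut, 93.3, 81.8 and 103 in AR3_het and 5.78, 5.77, 7.74 and 2.87 in nude. AR3_het was far above every mutant library, with a log2 fold change of -3.40 (adjusted p = 3.76e-06, SE 0.28) in AR3_mut and -4.08 (adjusted p = 4.85e-07, SE 0.25) in nude. Gbp4 was at 36, 60.2 and 35.8 CPM in AR3_mut, 13.7, 13.6 and 20.8 in AR3_het and 8.67, 4.12, 15.5 and 8.6 in nude. AR3_mut was above both other groups, with a log2 fold change of 1.45 (adjusted p = 0.00907, SE 0.38) against AR3_het and 2.28 (adjusted p = 0.00354, SE 0.37) against nude, the first lost without AR3_mut 2 (1.09, adjusted p = 0.0529). Gbp9 was at 28.9, 32.4 and 27.9 CPM in AR3_mut, 11.6, 14.9 and 10.3 in AR3_het and 14.8, 13.6, 10.5 and 10.6 in nude. AR3_mut was above both other groups, with a log2 fold change of 1.29 (adjusted p = 0.00125, SE 0.24) against AR3_het and 1.26 (adjusted p = 0.00619, SE 0.23) against nude. The annotated spans of Gbp4, Gbp8 and Gbp9 overlap on the minus strand of chromosome 5 (105014150 to 105139586, GENCODE M21), so their counts are uncertain where reads fall in shared parts.

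Gbp5 was at 26.6, 30.7 and 21.9 CPM in AR3_mut, 10.3, 13.9 and 13.7 in AR3_het and 9.75, 6.6, 9.96 and 10.2 in nude. AR3_mut was above both other groups, with a log2 fold change of 1.07 (adjusted p = 0.00577, SE 0.26) against AR3_het and 1.54 (adjusted p = 0.00353, SE 0.25) against nude. Gbp3 stood at 122 to 168 CPM in AR3_mut against 62.1 to 81.5 in AR3_het (log2 fold change 0.94, adjusted p = 0.00456, SE 0.22) and 75.1 to 120 in nude, and Gbp11 was not called. Endothelial markers summed to 6264 to 7482 CPM in AR3_mut, 1399 to 2664 in nude and 183 to 220 in AR3_het, and their part in the levels of the Gbp genes was not tested.

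**Figure D5:**
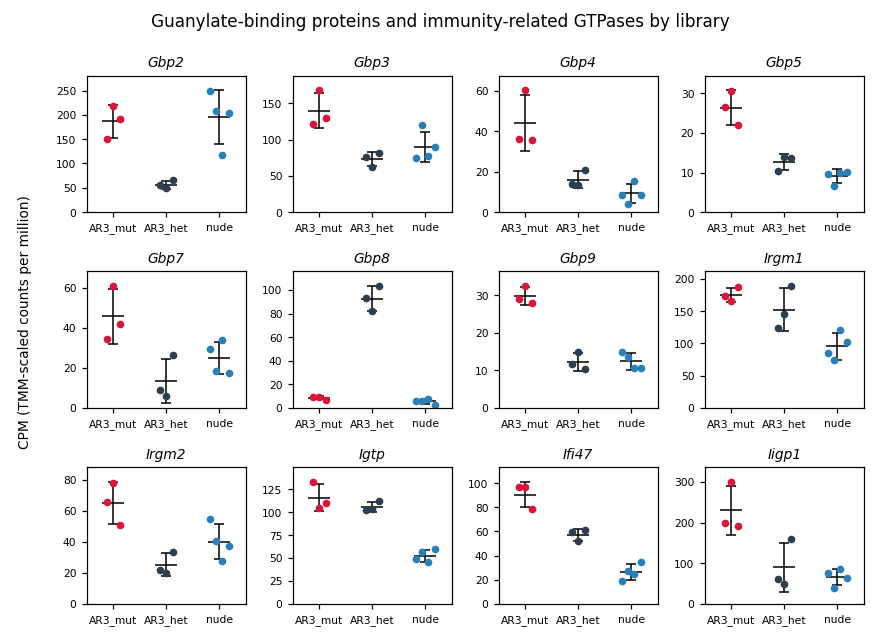
CPM (vertical axes from 0) of 7 Gbp genes and the 5 immunity-related GTPase genes in each library; points are libraries, bars are the mean and SD of a group (n = 3, 3 and 4). Gbp4, Gbp5, Gbp9 and Iigp1 are higher in AR3_mut than in both other groups, Gbp2 is higher in both mutant groups, Gbp8 is high in AR3_het alone, and Igtp, Irgm1 and Ifi47 are lowest in nude.

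The immunity-related GTPases in the mouse also act on microbial vacuoles. Of their genes, 3 of 5 were higher in AR3_mut than in AR3_het and 3 of 5 lower in nude. Among all tested genes, 21.2% were higher in AR3_mut and 24.2% lower in nude. Igtp was at 133, 105 and 110 CPM in AR3_mut, 102, 104 and 112 in AR3_het and 48.4, 56.9, 45.9 and 59.4 in nude. AR3_mut overlapped with AR3_het (log2 fold change 0.13, adjusted p = 0.545, SE 0.16) and nude was below both (-1.01, adjusted p = 0.000208, SE 0.15 against AR3_het, and 1.14, adjusted p = 0.00145, SE 0.15 for AR3_mut against nude). Irgm2, next to it on chromosome 11, was at 65.7, 78.1 and 50.8 CPM in AR3_mut, 21.9, 20 and 33.5 in AR3_het and 54.9, 40.4, 27.7 and 37.3 in nude. It was higher in AR3_mut than in AR3_het without overlap (log2 fold change 1.37, adjusted p = 0.00219, SE 0.28) and missed the threshold in nude (0.67, adjusted p = 0.0532, SE 0.26). The pair shared 102 of 114 promoter bases compared around the core, and their annotated spans overlap on the same strand, so reads may be split between them.

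Ifi47 was at 96.6, 96.7 and 78.6 CPM in AR3_mut, 59.2, 51.8 and 61.1 in AR3_het and 18.8, 26.8, 24.9 and 34.8 in nude. The 3 groups were separate, with AR3_mut highest (log2 fold change 0.66, adjusted p = 0.0232, SE 0.21 against AR3_het) and nude lowest (-1.13, adjusted p = 0.000613, SE 0.20 against AR3_het, and 1.79, adjusted p = 0.000609, SE 0.20 for AR3_mut against nude). The higher level in AR3_mut than in AR3_het was lost without AR3_mut 1 or 2 or AR3_het 1 or 2 (adjusted p 0.0646 to 0.127) and without TMM (0.36, adjusted p = 0.216). Iigp1 was at 199, 300 and 192 CPM in AR3_mut, 61.7, 49.1 and 159 in AR3_het and 75.9, 40, 85.2 and 64.3 in nude. AR3_mut was above both other groups (log2 fold change 1.36, adjusted p = 0.0213, SE 0.42 against AR3_het, and 1.80, adjusted p = 0.0133, SE 0.39 against nude), and AR3_het 3 was far above the other controls. The first call was lost without AR3_mut 2, AR3_het 1 or AR3_het 2 (adjusted p 0.0907 to 0.101) and without TMM (1.03, adjusted p = 0.0762). Irgm1 was at 174, 166 and 187 CPM in AR3_mut, 124, 145 and 189 in AR3_het and 85.6, 73.8, 121 and 102 in nude. AR3_mut and AR3_het overlapped, and nude was below both (log2 fold change -0.67, adjusted p = 0.0149, SE 0.20 against AR3_het, and 0.88, adjusted p = 0.0174, SE 0.20 for AR3_mut against nude). The first was lost without AR3_het 3 (adjusted p = 0.0663), and the second without AR3_mut 3 (0.0502) or nude 1 (0.0533).

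Of the 6 remaining Ifi genes, 2 were lower in AR3_mut than in AR3_het and 3 in nude, against 20.6% and 24.2% of all genes. Ifi30, which encodes a lysosomal thiol reductase used in antigen processing, was at 72.7, 52.7 and 63.7 CPM in AR3_mut, 330, 351 and 238 in AR3_het and 197, 176, 129 and 185 in nude. The 3 groups were separate, with AR3_mut lowest (log2 fold change -2.28, adjusted p = 1.33e-05, SE 0.23), nude between (-0.83, adjusted p = 0.00442, SE 0.20) and AR3_mut below nude (-1.45, adjusted p = 0.00216, SE 0.21). Ifi35 was at 167, 201 and 164 CPM in AR3_mut, 277, 309 and 262 in AR3_het and 119, 110, 113 and 129 in nude. Its groups were also separate but nude was lowest, with a log2 fold change of -0.67 (adjusted p = 0.00445, SE 0.16) in AR3_mut and -1.26 (adjusted p = 2.77e-05, SE 0.14) in nude against AR3_het. For AR3_mut against nude it passed (log2 fold change 0.59, adjusted p = 0.0241, SE 0.15), a call lost without AR3_mut 1 or 2, AR3_het 1, or nude 1 or 2 (adjusted p 0.0521 to 0.0896).

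Ifi44 was at 47.7, 95.5 and 26.9 CPM in AR3_mut, 53.4, 50.6 and 103 in AR3_het and 41.5, 33, 22.1 and 20.1 in nude. It was lower in nude than in AR3_het (log2 fold change -1.23, adjusted p = 0.0247, SE 0.40), and the call was lost without AR3_het 3 (adjusted p = 0.136) or nude 4 (0.0665). Ifi27, Ifi27l2a and Ifi27l2b were not called, nor was Isg20l2, an exonuclease gene related to Isg20.

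Side by side, 7 of 69 members (10.1%) were higher in both mutant groups against the shared controls (Bst2, Gbp2, Ifi204, Ifitm2, Ifnar2, Irf1 and Irf2bpl) and 15 (21.7%) were lower in both, among them Irf4, Irf8, Usp18, Isg20, Gbp8, Oas3 and Ifi30 and the 4 whose selection fixed it. Over all genes tested 16.8% were higher in both and 16.8% lower in both, and the comparisons share the AR3_het libraries. Ifi47 and Ifnar1, 2 members, were higher in AR3_mut and lower in nude, and 17 members were called in no comparison. The shares of all genes with these patterns were not counted, so neither count is read as a result about the members. Of the 36 calls in AR3_mut against AR3_het, 26 were made under every alternative run that tested the gene. The same held for 31 of 39 calls in nude against AR3_het and 13 of 22 in AR3_mut against nude. Oas1d, Oas1f and Oas1h are among both the 26 and the 31, and Ifit1bl1 is among the 26. Their selection fixed these calls, so that their stability supports nothing, and Oas1h was not tested in some of the runs. In the authors' deposited table, at an adjusted p under 0.05, 21 members were higher and 18 lower in AR3_mut against AR3_het. There were 8 and 32 in nude against AR3_het, and 22 and 4 in AR3_mut against nude. The authors' values come from the same libraries and were read without a share over all genes. Both of their lower counts against AR3_het include members whose selection fixed it.

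Other genes of the pathway were read from lists of interferons, receptor partners, sensors and further stimulated genes. Of 10 interferon genes, Ifnl2, Ifnl3 and Ifng were listed in the table, and none passed the filter. Ifnl2 held 4, 9 and 8 counts in AR3_het, 0 in each AR3_mut library and 1, 0, 0 and 0 in nude. Ifnl3 held 2, 4 and 7 counts in AR3_het and 0 in every mutant library. Ifng, a product of lymphocytes, held 13, 5 and 2 counts in AR3_het and 0 in every mutant library, where T cell markers were also at or near 0.

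Among 10 genes of further receptor chains, kinases and inhibitors, 2 were higher and 1 lower in AR3_mut, and 1 higher and 2 lower in nude. Shares of all tested genes were 21.2% higher and 20.6% lower in AR3_mut, and 23.7% and 24.2% in nude. Socs3, an inhibitor of cytokine receptor signalling, was at 1120, 811 and 1414 CPM in AR3_mut, 154, 261 and 265 in AR3_het and 425, 575, 854 and 853 in nude. Both mutant groups were above AR3_het, with a log2 fold change of 2.30 (adjusted p = 0.000191, SE 0.33) in AR3_mut and 1.58 (adjusted p = 0.00126, SE 0.31) in nude. Ptpn6, a phosphatase of blood cells, was at 24.2, 9.26 and 6.97 CPM in AR3_mut, 267, 262 and 202 in AR3_het and 15.2, 7.83, 23.8 and 13.5 in nude. It was lower in both, with a log2 fold change of -4.06 (adjusted p = 2.56e-05, SE 0.44) and -4.03 (adjusted p = 7.92e-06, SE 0.38). Jak1 was higher in AR3_mut (log2 fold change 0.69, adjusted p = 0.00828, SE 0.18), a call lost without AR3_mut 2 (adjusted p = 0.0506) or AR3_het 2 (0.0523) and without TMM (0.39, adjusted p = 0.0787). Tyk2 was lower in nude (log2 fold change -0.89, adjusted p = 0.00922, SE 0.24).

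Among 12 tested sensors and adaptors, 5 were higher and 4 lower in AR3_mut than in AR3_het, 3 and 3 in nude, and 3 were higher in AR3_mut than in nude. Without AR3_mut 1, 3 were higher and 3 lower in the first comparison, and the last 3 calls were lost. The background was 21.2% higher and 20.6% lower in the first comparison, 23.7% and 24.2% in nude, and 7.58% higher in AR3_mut against nude. Myd88, the adaptor of Toll-like receptors, was at 179, 225 and 220 CPM in AR3_mut, 37.7, 40.6 and 44 in AR3_het and 160, 176, 179 and 191 in nude. It was higher in both mutant groups, with a log2 fold change of 2.35 (adjusted p = 1.32e-06, SE 0.16) in AR3_mut and 2.12 (adjusted p = 1.37e-06, SE 0.16) in nude. Trim25, a ubiquitin ligase that activates RIG-I, was higher in both mutant groups, with a log2 fold change of 1.03 (adjusted p = 0.000833, SE 0.18) in AR3_mut and 0.85 (adjusted p = 0.00155, SE 0.17) in nude. Zbp1, a sensor of nucleic acids, was at 58.7, 45.2 and 50.8 CPM in AR3_mut, 111, 125 and 95.7 in AR3_het and 29.3, 50.3, 17.7 and 37.7 in nude. It was lower in both, with a log2 fold change of -1.09 (adjusted p = 0.0106, SE 0.29) and -1.70 (adjusted p = 0.000299, SE 0.27). Dhx58 and Traf3 were also lower in nude (log2 fold change -1.96, adjusted p = 0.000206 and -1.27, adjusted p = 8.86e-05). Both were lower in AR3_mut (-0.89, adjusted p = 0.0398 and -0.89, adjusted p = 0.00255), as was Ikbke (-0.93, adjusted p = 0.0105). The AR3_mut call of Dhx58 was lost without AR3_mut 1, 2 or 3 or AR3_het 1 or 2 (adjusted p 0.0604 to 0.1). Dhx58 and Tmem173 were higher in AR3_mut than in nude (1.07, adjusted p = 0.0491 and 0.81, adjusted p = 0.0449).

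Of 37 further interferon-stimulated genes, 10 were higher and 8 lower in AR3_mut than in AR3_het, with a median log2 fold change of 0.10. All tested genes gave 21.2% higher and 20.6% lower there, and the list's share of lower calls was near that. In nude, 1 was higher and 20 lower, with a median of -0.70, against 23.7% and 24.2% of all genes. In AR3_mut against nude, 19 were higher, with a median of 0.83, against 7.58% of all genes. Without TMM the counts were 5 and 12 in AR3_mut, 1 and 26 in nude, and 20 higher in AR3_mut than in nude. The count higher in AR3_mut than in AR3_het was 5 without AR3_het 1 and 6 without AR3_mut 2, and that in AR3_mut against nude was 12 without nude 1. Summed levels were 6502 to 7795 CPM in AR3_mut, 6820 to 8308 in AR3_het and 2684 to 5007 in nude, so nude lay below both other groups.

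The chemokines and antigen presentation genes of that list differed among themselves. Cxcl10, with means of 425 CPM in AR3_mut and 433 in AR3_het, and Psmb8, with 428 and 431, were not called there (adjusted p = 0.945 and 0.965) and were lower in nude (log2 fold change -1.89, adjusted p = 7.18e-05 and -1.27, adjusted p = 3.11e-05); both are named after their values were seen. Cxcl9 was at 25.4, 24.9 and 22.9 CPM in AR3_mut, 10.8, 9.4 and 9.44 in AR3_het and 2.17, 1.65, 0.553 and 3.28 in nude. The groups were separate, with AR3_mut highest (log2 fold change 1.31, adjusted p = 0.00771, SE 0.33 against AR3_het, and 3.60, adjusted p = 0.00035, SE 0.37 against nude). Cxcl11 was at 1.56, 0.579 and 0.995 CPM in AR3_mut, 19.2, 21.8 and 20.8 in AR3_het and 0.723, 0, 1.66 and 0.819 in nude. It was near 0 in both mutant groups, with a log2 fold change of -4.16 (adjusted p = 0.00012, SE 0.56) and -4.70 (adjusted p = 1.69e-05, SE 0.50) against AR3_het. Nlrc5, the activator of MHC class I genes, was at 23.5, 24.9 and 20.9 CPM in AR3_mut, 53.6, 49.1 and 34.8 in AR3_het and 2.89, 1.65, 1.66 and 6.55 in nude. It was lowest in nude (log2 fold change -3.80, adjusted p = 9.52e-06, SE 0.37 against AR3_het, and 2.82, adjusted p = 0.0017, SE 0.39 for AR3_mut against nude). Its lower level in AR3_mut than in AR3_het (log2 fold change -0.98, adjusted p = 0.0407, SE 0.35) was lost without any of 5 of these 6 libraries, AR3_het 3 being the other, with adjusted p of 0.0588 to 0.105.

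Ciita, the activator of MHC class II genes, was at 1.96, 0 and 1.99 CPM in AR3_mut, 34.8, 37.9 and 35.4 in AR3_het and 0, 0, 0 and 0.409 in nude. It fell to 1 count over all nude libraries against 458 in AR3_het, a ratio of 337-fold with a 95% counting interval of 60.2 to 13340-fold, and was lower in AR3_mut with a log2 fold change of -4.74 (adjusted p = 4.38e-05, SE 0.55). Psmb9, an immunoproteasome subunit, was at 143, 162 and 121 CPM in AR3_mut, 567, 603 and 540 in AR3_het and 80.2, 85.8, 71.9 and 86.8 in nude. It was separate in all groups and lower in both mutant groups, with a mean of 142 CPM in AR3_mut against 570 in AR3_het (adjusted p = 4.28e-06) and a log2 fold change of -2.81 (adjusted p = 2.32e-07, SE 0.15) in nude. Slfn5 was at 64.9, 157 and 168 CPM in AR3_mut, 6.21, 5.15 and 30.2 in AR3_het and 60.7, 33, 107 and 77.4 in nude. It was the 1 gene of the list higher in nude (log2 fold change 2.29, adjusted p = 0.0115, SE 0.63) and was also higher in AR3_mut (3.19, adjusted p = 0.00303, SE 0.67), with AR3_het 3 above the other controls. Slfn2 was at 47.7, 42.3 and 29.9 CPM in AR3_mut, 65.8, 45.8 and 49.1 in AR3_het and 9.03, 9.07, 1.11 and 6.96 in nude. Nude was below both other groups, with a log2 fold change of -2.98 (adjusted p = 7.62e-05, SE 0.39) against AR3_het and 2.57 (adjusted p = 0.00284, SE 0.40) for AR3_mut against nude.

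Within groups, no library was the highest for most members. In AR3_het the highest library was AR3_het 2 for 34 of 72 members and AR3_het 3 for 25. In AR3_mut it was AR3_mut 2 for 28 of the 68 members with counts there, and in nude it was nude 4 for 25 of 68. Members took 0.925% to 0.965% of all counts in AR3_mut, 1.02% to 1.1% in AR3_het and 0.554% to 0.868% in nude, on library totals from 1056066 counts (AR3_mut 3) to 4175851 (AR3_het 1).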

How the data were processed

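Sorted thymic epithelial cells gave 10 bulk libraries, 3 AR3_mut, 3 AR3_het and 4 nude, grouped by the labels. The authors deposited 1 table of raw counts per gene for 15790 genes, per the file headers, with totals of 1056066 to 4175851 counts per library, and a further 20 per-sample columns that were not used. Its log2 fold changes and adjusted p-values of 3 comparisons, deposited by the authors, were read for the members only; their comparison name Foxn1_ATAC was taken as AR3_mut. Tools named in the submitters' processing notes, in no stated order or role, are DESeq2, HTSeq, STAR 2.4.2a, cutadapt and bcl2fastq, with the build mm10. The sources used here do not say whether molecular identifiers were collapsed or strand was used in counting.

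Tests were run with edgeR 4.0.16 under R 4.3.3: TMM scaling, filterByExpr (minimum count 10, minimum total 15), 1 robust quasi-likelihood fit of group over the 10 libraries, and two-sided tests adjusted by Benjamini-Hochberg over 12912 genes at 0.05. The SE is the absolute log2 fold change divided by the square root of the F statistic. A gene at 0 in a group is given as a bound, taking 3 counts over that group as the floor. Such bounds and intervals allow for counting error alone. The scripts were tested on simulated data. No pair of libraries of a group agreed within sampling noise.

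Members and gene lists were chosen with earlier results of these data known. Values by library are given for the receptor genes, Stat2 and 8 IRF genes, and in other roles for up to 4 called members with the largest change against AR3_het in each mutant group and up to 3 between the mutant groups, where the higher group had at least 20 CPM. Tested genes named from the other pathway lists followed the same rule, except Cxcl10 and Psmb8, and some are given without values by library. Alternatives were relative log expression factors, no TMM, no filter, DESeq2 1.42.0, limma-voom (limma 3.58.1), only the 2 groups compared, a replicate block, and each library left out. Gene positions are from GENCODE M21, and promoters from RefSeq on GRCm38.p6. Protein sequences were not used here, and the individual results of 2 members, which counts and sums over the members include, are not reported here.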

Additional observations from a re-analysis of the deposited data

Results flagged for a closer look

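Among 72 members examined in the 4 nude libraries, Gbp5 in nude 2 stood apart, at 6.6 CPM against 9.75 to 10.2 CPM in the other 3, with a gap of 0.868 of the group's range, above Dixon's 95% critical value for 4 values. Chance alone gives such a gap in about 5% of genes.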

How the results depend on the processing

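No member's called difference changed direction under any alternative run. The number of members higher in AR3_mut than in AR3_het was 13 to 21 when single libraries were left out (21 with all libraries), and the number lower was 14 to 18 (15). In nude against AR3_het the ranges were 7 to 10 higher (8) and 27 to 34 lower (31), and in AR3_mut against nude 13 to 23 higher (19) and 2 to 6 lower (3). Over all genes, the calls ran from 4444 to 5695 (5402), 5169 to 6596 (6182) and 883 to 1993 (1458). In AR3_mut against nude, 952 genes were called with only the 2 groups compared. With the replicate number as a block, 948 genes were called there; same-numbered libraries correlated at -0.31 to 0.157 in their deviations from the group means, so the numbers were not taken to pair them. The cause of these differences was not tested. Under the block 8 calls of members were not made (adjusted p 0.0521 to 0.0975): Ifnar1 against AR3_het in both mutant groups, Ifi44 and Ifit1bl1 in nude against AR3_het, and Ifi35, Ifitm5, Irf2 and Stat2 in AR3_mut against nude. Nor were 13 calls of other pathway genes, Tyk2 in nude against AR3_het among them (adjusted p = 0.0557). At these depths 3 counts correspond to 0.718 to 2.84 CPM, which limits statements on members at 0.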
